A study of Mus musculus with 24 samples.

Results

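A set of 4 genes of the liver clock output were followed across the 8 groups of a mouse feeding study: Dbp, Tef and Hlf, which encode the 3 PAR bZIP factors, and Nfil3. The members were the genes with these symbols in the deposited tables, 4 of the 15741 genes that the tables hold, and all 4 were measured in every library. Liver RNA from 24 mice was sequenced, with 3 mice in each group. The groups were GCN2 KO mice on a leucine-devoid diet (LeuD) killed at circadian time 15 (CT15) or 3 (CT03), GCN2 KO mice on the control diet (Control) at CT15 or CT03, and wild-type (WT) mice on LeuD and on Control at the same times. The KO lacks GCN2, the protein kinase that senses uncharged transfer RNA when an amino acid is short. Every mouse, controls included, was housed alone, was fed a control diet for 2 days before LeuD began at dark onset in the LeuD groups, and spent the last 8 days in constant darkness, so CT refers to the internal day. The sources used here give no strain, sex or age.

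PAR bZIP factors are transcription factors named for a region rich in proline and acidic residues, and they activate genes through a DNA element called the D-box. NFIL3, also called E4BP4, binds the same element and represses it. In mouse liver, Dbp is driven through E-boxes by the clock activators BMAL1 (gene Arntl) and CLOCK, while Nfil3 is held down by the REV-ERB receptors (Nr1d1 and Nr1d2) through elements called ROREs, so the activators and the repressor are known to peak at opposite times of day. PAR bZIP factors act on liver genes of drug and haem metabolism, such as the P450 reductase gene Por.

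The promoter windows of the 4 genes are shown because the members move together or in opposite directions in the results. The sequences are RefSeq windows of 300 bases on GRCm38.p6 that run from upstream of a start to just past it, printed 5′ to 3′ on the strand of the gene. All 4 genes matched, and Tef has 2 starts. Capitals mark matches to 1 of 5 motifs searched on both strands, namely the E-box (CACGTG), the D-box (TTATGTAA or TTACGTAA), the RORE core (AGGTCA), the cyclic AMP element (TGACGTCA) and the amino acid response element (TGATGCAA). The windows are chr7:45704997-45705296 on the plus strand for Dbp, chr15:81802423-81802722 and chr15:81811164-81811463 on the plus strand for Tef, chr11:90390868-90391167 on the minus strand for Hlf and chr13:52980990-52981289 on the minus strand for Nfil3.
Dbp: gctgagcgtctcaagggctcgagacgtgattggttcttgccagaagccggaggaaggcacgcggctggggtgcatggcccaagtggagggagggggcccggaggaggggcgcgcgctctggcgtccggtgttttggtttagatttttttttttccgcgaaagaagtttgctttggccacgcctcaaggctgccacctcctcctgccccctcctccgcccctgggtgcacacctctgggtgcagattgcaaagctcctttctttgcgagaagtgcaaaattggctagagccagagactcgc
Tef, first window: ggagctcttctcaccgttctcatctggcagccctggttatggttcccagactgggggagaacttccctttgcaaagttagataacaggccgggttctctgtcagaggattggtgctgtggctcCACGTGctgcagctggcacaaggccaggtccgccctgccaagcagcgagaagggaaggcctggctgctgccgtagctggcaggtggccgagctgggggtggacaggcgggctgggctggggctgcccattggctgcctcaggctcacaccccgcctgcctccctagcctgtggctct
Tef, second window: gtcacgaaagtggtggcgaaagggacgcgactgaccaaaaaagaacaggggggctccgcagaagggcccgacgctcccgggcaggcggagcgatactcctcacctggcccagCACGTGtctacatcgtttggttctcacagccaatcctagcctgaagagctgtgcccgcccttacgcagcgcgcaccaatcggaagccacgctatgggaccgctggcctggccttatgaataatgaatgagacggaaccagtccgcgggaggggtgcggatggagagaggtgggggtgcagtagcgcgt
Hlf: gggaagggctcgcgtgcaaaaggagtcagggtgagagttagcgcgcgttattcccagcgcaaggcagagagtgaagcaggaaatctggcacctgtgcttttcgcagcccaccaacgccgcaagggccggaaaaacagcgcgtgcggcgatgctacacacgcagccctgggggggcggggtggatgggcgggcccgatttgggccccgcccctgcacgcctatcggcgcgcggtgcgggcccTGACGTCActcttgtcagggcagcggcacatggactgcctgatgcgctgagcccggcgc
Nfil3: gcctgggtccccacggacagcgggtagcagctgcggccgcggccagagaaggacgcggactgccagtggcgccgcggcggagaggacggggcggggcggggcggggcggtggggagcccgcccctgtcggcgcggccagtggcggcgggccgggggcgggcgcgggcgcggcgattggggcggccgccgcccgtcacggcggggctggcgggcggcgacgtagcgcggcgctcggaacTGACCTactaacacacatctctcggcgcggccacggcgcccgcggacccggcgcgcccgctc
Both Tef windows hold CACGTG, at 127 and 138 bases before the start, and 7.15% of all 32851 promoter windows of this length hold it. The Hlf window holds TGACGTCA at 9 bases before the start, as do 1.79% of windows. The Nfil3 window holds the RORE core on the opposite strand, printed as TGACCT, at 12 bases before the start, and 16.3% of windows hold that core. The Dbp window holds none of the 5 motifs. The D-box, held by 1.06% of windows, and the amino acid response element, held by 0.895%, were in no window of the 4 genes. A match is a description of these letters and is not a measured binding site.

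Each library held 34137121 to 44884200 reads on genes. The 8 hepatocyte markers, such as Alb and Apob, summed to 85482 to 183948 RPM (reads scaled to the library's total) in the libraries, while the 10 lymphocyte markers listed summed to 1.37 to 16.8 RPM, and all 8 hepatocyte markers were measured. Eif2ak4, the gene of GCN2, had 364 ± 71.4 normalized counts in KO livers and 325 ± 16.5 in WT livers (SD, n = 12 each), so its total count did not separate the genotypes. The 12 listed markers of pancreas acinar cells stood at 4029.8 to 13767 RPM in 3 LeuD libraries (KO CT03 replicate 1, KO CT15 replicate 3 and WT CT15 replicate 1) and at no more than 613 RPM in the others. Hepatocyte markers reached 98860 to 183948 RPM on LeuD and 85482 to 135054 RPM on Control, and the 6 erythroid markers 78.2 to 276 RPM on LeuD and 212 to 462 RPM on Control. On LeuD the hepatocyte markers stood at 161119 to 183948 RPM in KO and 114069 to 138544 RPM in WT livers at CT15, and at 144901 to 152742 RPM in KO and 98860 to 108492 RPM in WT livers at CT03. The part of these differences in the results was not tested. In whole tissue, fewer cells of a type and less RNA per cell cannot be told apart.

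Levels below are normalized counts, which are reads divided by a size factor of the library, on 1 scale over the 24 libraries. Changes are log2 differences ± SE between 2 groups of 3 mice, taken from the authors' table of that pair on log2(normalized count + 1), with the adjusted p of limma over all genes of the table. A change was called at an adjusted p under 0.05. Where 2 groups of 3 mice are said not to overlap, this describes the values only. The share of all genes apart in such a pair was not taken, so it adds no support to a change. Of the 4 genes, Dbp varied most among mice of a group: its highest mouse exceeded its lowest by 1.33-fold in WT LeuD at CT03 and by 63.6-fold in KO Control at CT03. The widest group spread was 3.91-fold for Tef, 2.54-fold for Hlf and 1.91-fold for Nfil3.

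**Figure D1:**
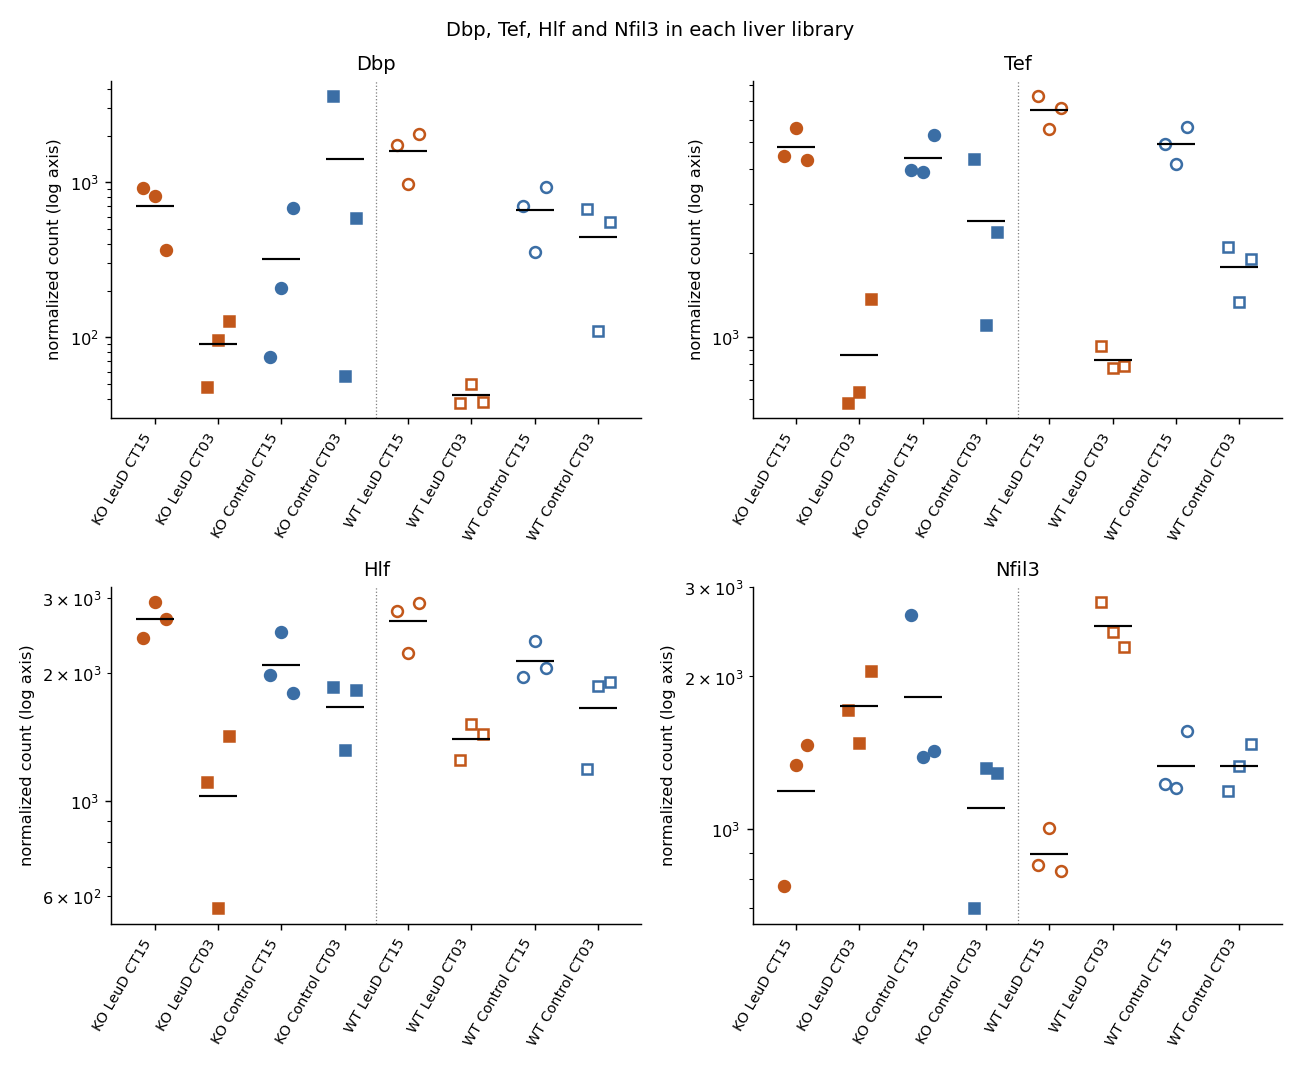
Normalized counts of Dbp, Tef, Hlf and Nfil3 (log axes) in each of the 24 libraries, by group, with KO left and WT right of the dotted line. Each point is 1 mouse (circles CT15, squares CT03, filled KO, open WT, orange LeuD, blue Control) and each bar is the mean of 3 mice; on LeuD the CT15 and CT03 points are apart for all 4 genes.

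In WT livers on LeuD, Dbp, Tef and Hlf rose and Nfil3 fell at CT15 relative to CT03. Dbp, the D-box binding protein gene, had 1743, 969 and 2061 normalized counts at CT15 (replicates 1, 2 and 3), against 37.8, 50.2 and 38.5 at CT03. The lowest CT15 mouse was far above the highest CT03 mouse. Dbp rose 35.4-fold, a log2 change of 5.15 ± 0.27 (adjusted p = 4.57e-05).

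Tef, the thyrotroph embryonic factor, had 7263, 5564 and 6583 normalized counts at CT15 and 926, 772 and 789 at CT03 in these livers. Tef rose 7.77-fold (2.96 ± 0.12, adjusted p = 1.8e-05). Hlf, the hepatic leukemia factor, had 2797, 2222 and 2913 at CT15 and 1246, 1513 and 1436 at CT03. Its change of 1.88-fold (0.91 ± 0.13, adjusted p = 0.00469) was the smallest of the 3 activators, and the groups again did not overlap. Nfil3, the repressor, had 851, 1008 and 828 at CT15 and 2803, 2451 and 2290 at CT03. Nfil3 fell 2.81-fold (-1.49 ± 0.12, adjusted p = 0.000323), and each CT15 mouse was below each CT03 mouse. All 4 members were called in this comparison, against 9.61% of all genes. All 4 were also called without each library in turn, and when CT15 replicate 1, where acinar markers were high, was omitted, the changes were 5.04, 2.87, 0.87 and -1.46 for Dbp, Tef, Hlf and Nfil3.

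KO livers on LeuD had changes of the same signs, with 2 of the 4 changes called against 0.805% of all genes. Dbp had 915, 817 and 368 normalized counts at CT15 and 47.7, 96.6 and 128 at CT03 in KO livers. Dbp rose 7.64-fold (2.93 ± 0.44, adjusted p = 0.0308). Tef had 4451, 5586 and 4315 at CT15 and 581, 635 and 1367 at CT03, and rose 5.94-fold (2.57 ± 0.31, adjusted p = 0.0152). For both genes the 2 times did not overlap.

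Hlf had 2407, 2929 and 2673 normalized counts at CT15 and 1110.4, 559.7 and 1420.0 at CT03 in KO LeuD livers, a change of 1.47 ± 0.31 that missed the threshold (adjusted p = 0.0834). Nfil3 had 774, 1340 and 1463 at CT15 and 1721, 1479.8 and 2053 at CT03, a change of -0.60 ± 0.26 (adjusted p = 0.301). Neither gene overlapped between the times, although the highest CT15 mouse and the lowest CT03 mouse of Nfil3 stood close together. The calls in KO LeuD rested on single libraries. Dbp missed the threshold without CT15 replicate 1 or 2 or without CT03 replicate 1 or 2 (adjusted p = 0.0600 to 0.116), and Tef missed it without any 1 of the 3 CT15 libraries or without CT03 replicate 2 (0.0558 to 0.0737). Hlf passed without CT03 replicate 3 (1.75, adjusted p = 0.0238). In 1 fit of 24 libraries Hlf passed (1.47 ± 0.25, adjusted p = 0.00121) and Dbp did not (2.94 ± 1.02, 0.0814). The authors' deposited table gave Hlf an adjusted p of 0.000685. Without the 2 acinar libraries Dbp stayed past the threshold (2.94, adjusted p = 0.0498) and Tef did not (2.41, adjusted p = 0.162).

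On the control diet 1 member was called in WT livers and 0 in KO livers. In WT Control livers Tef had 4908, 4155 and 5661 normalized counts at CT15 and 2106, 1334 and 1907 at CT03. Tef rose 2.78-fold (1.48 ± 0.18, adjusted p = 0.0188), the 1 member of 4 called, against 1.42% of all genes. This call was lost without CT15 replicate 1 or 3 or CT03 replicate 2 or 3 (adjusted p = 0.0508 to 0.0621), with changes of 1.28 to 1.54.

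The other members were not called in WT Control livers. Dbp had 703, 356 and 937 normalized counts at CT15 and 676, 110 and 555 at CT03, which overlapped (0.83 ± 0.66, adjusted p = 0.562). Hlf had 1957, 2368 and 2052 at CT15 and 1190, 1861 and 1903 at CT03, which did not overlap (0.39 ± 0.19, adjusted p = 0.33). Nfil3 stood at nearly the same level at both times, with 1231, 1207 and 1562 at CT15 and 1189, 1331 and 1475 at CT03 (-0.00 ± 0.13, adjusted p = 0.995).

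KO Control livers held the widest group spread of Dbp, Tef and Nfil3. Dbp had 74.1, 209 and 681 normalized counts at CT15 and 3591, 56.5 and 589 at CT03, so both the highest and the lowest Dbp level among the 6 Control mice at CT03 came from this group. Its change was -1.17 ± 1.47 (adjusted p = 0.797), and without CT03 replicate 1 it was 0.25. Tef had 3969, 3899 and 5266 at CT15 and 4328, 1106 and 2371 at CT03 (0.94 ± 0.45, adjusted p = 0.452). Hlf had 1972, 2486 and 1787 at CT15 and 1848, 1316 and 1825 at CT03 (0.32 ± 0.19, adjusted p = 0.548). Nfil3 had 2647, 1386 and 1427 at CT15 and 699, 1319 and 1289 at CT03, which did not overlap (0.71 ± 0.34, adjusted p = 0.451). By limma 0 of the 4 members were called, against 0.0407% of all genes, 0 had an unadjusted p under 0.05, and edgeR called 0.

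In both KO Control groups 1 mouse stood apart, singled out after its values were seen. Replicate 1 at CT15 had the lowest Dbp (74.1) and the highest Nfil3 (2647) of the 12 CT15 libraries. Replicate 1 at CT03 had the highest Dbp (3591), the highest Tef (4328) and the lowest Nfil3 (699) of the 12 CT03 libraries. Without the CT15 mouse the time change was -0.40 for Dbp and 0.40 for Nfil3, and without the CT03 mouse it was 0.25 for Dbp and 0.41 for Nfil3.

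**Figure D2:**
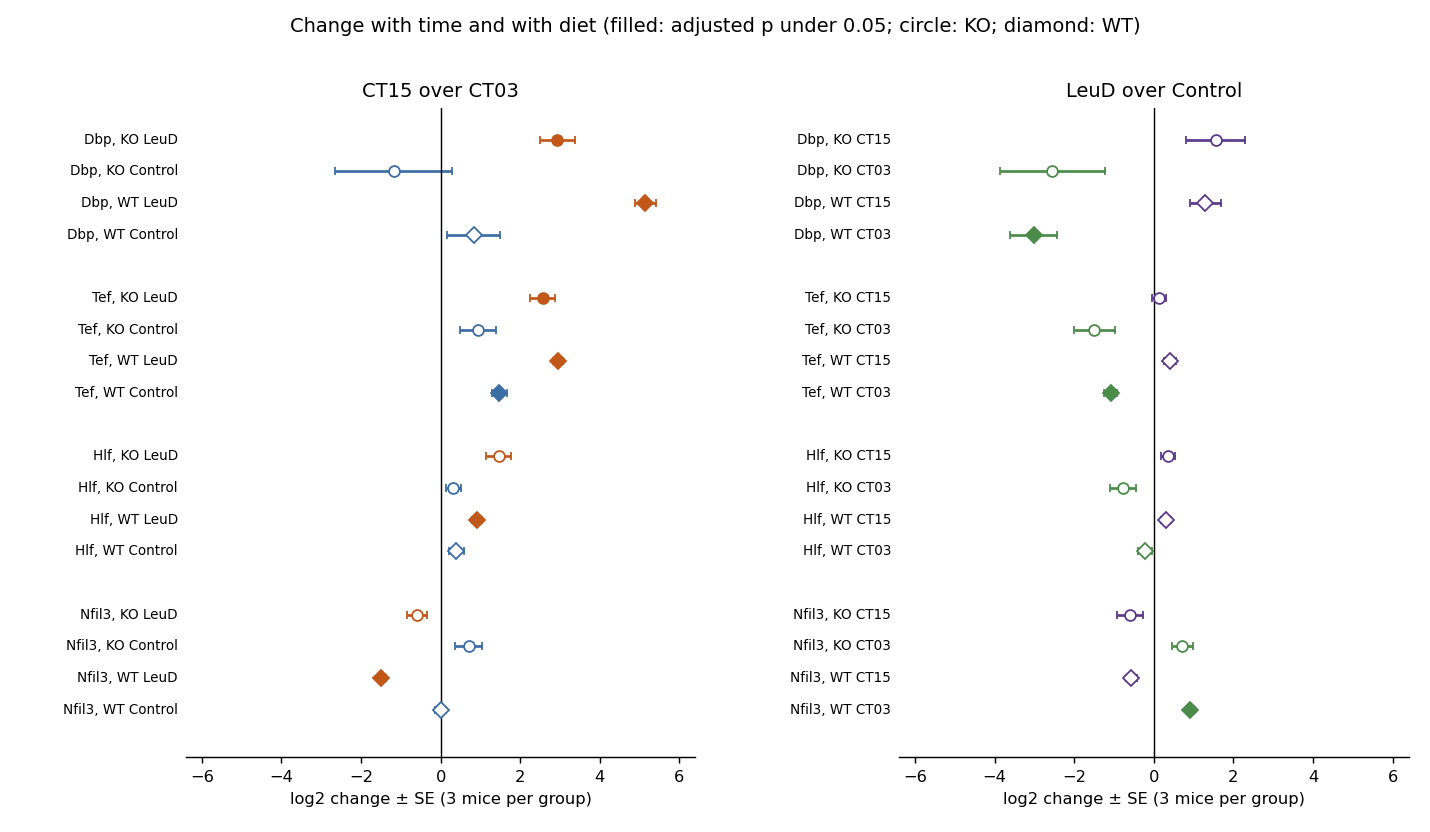
Log2 changes ± SE of the 4 genes with time (CT15 over CT03, left) and with diet (LeuD over Control, right), from groups of 3 mice, with KO above WT; filled symbols passed an adjusted p of 0.05. The time changes of Dbp, Tef and Hlf are above 0 and those of Nfil3 below 0 on LeuD (orange), and the called diet changes are all in WT at CT03 (green).

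Over both genotypes, the CT15 and CT03 libraries of each diet were compared library by library. On LeuD the 6 CT15 and the 6 CT03 libraries did not overlap for 4 of the 4 members, against 5.89% of all genes. Dbp ran from 368 to 2061 normalized counts (median 942) at CT15 and from 37.8 to 128 (median 49.0) at CT03 on LeuD. Nfil3 ran from 774 to 1463 (median 929) at CT15 and from 1479.8 to 2803 (median 2171) at CT03. On Control the 6 and 6 libraries overlapped for all 4 members, so 0 were apart, against 4.15% of all genes. A count of 0 of 4 is near that share, so it is no result about the members. The Tef overlap on Control came from KO replicate 1 at CT03 (4328). The other CT03 mice were at 2371 or lower and the CT15 mice at 3899 or higher. Dbp on Control ran from 74.1 to 937 (median 519) at CT15 and from 56.5 to 3591 (median 572) at CT03. Control medians at CT15 and CT03 were 4531 and 2006 for Tef, 2012 and 1836 for Hlf and 1407 and 1304 for Nfil3.

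The average time effect over both genotypes was fitted for each diet on the 24 libraries, a fit added after the data were seen. On LeuD all 4 members were called, against 14.9% of genes: the changes were 4.04 ± 0.72 for Dbp (adjusted p = 0.000743), 2.77 ± 0.25 for Tef (4.89e-07), 1.19 ± 0.18 for Hlf (0.000143) and -1.04 ± 0.19 for Nfil3 (0.000723). On Control 1 member was called, against 8.66% of genes. Tef rose by 1.21 ± 0.25 (adjusted p = 0.00446), and the other changes were -0.17 ± 0.72 for Dbp, 0.36 ± 0.18 for Hlf and 0.35 ± 0.19 for Nfil3. Averaged over diet as well, 3 members were called higher at CT15, against 24.9% of genes: Dbp by 1.94 ± 0.51 (adjusted p = 0.00841), Tef by 1.99 ± 0.17 (1.83e-07) and Hlf by 0.78 ± 0.12 (0.000139). Nfil3 was at -0.34 ± 0.13 (adjusted p = 0.0609).

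Whether the time effect itself differed between diets was tested by an interaction. In WT livers 1 member was called, and it was the 1 gene called of 14567 (0.00686%). Nfil3 had a time effect of -1.49 ± 0.12 on LeuD and -0.00 ± 0.13 on Control, a difference of -1.49 ± 0.18 (adjusted p = 0.0382). Tef ranked 3 by p with a difference of 1.48 ± 0.24 (adjusted p = 0.195), and Dbp ranked 8 with 4.31 ± 0.80 (0.251). Hlf had a difference of 0.52 ± 0.24 (0.778). The Nfil3 call was lost without 10 of the 12 libraries, each left out in turn (adjusted p = 0.063 to 0.193), with differences of -1.37 to -1.56. It held without Control CT03 replicate 2, where Dbp (5.13, adjusted p = 0.00874) and Tef (1.67, 0.0197) passed as well, and without LeuD CT15 replicate 2. In 1 fit of all 24 libraries the Nfil3 difference was -1.49 ± 0.37 and was far from the threshold (adjusted p = 0.999988).

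In KO livers the differences of the time effect between diets were 4.11 ± 1.70 for Dbp, 1.63 ± 0.61 for Tef, 1.15 ± 0.41 for Hlf and -1.31 ± 0.46 for Nfil3 (adjusted p = 0.755 for each). By limma 0 members were called, against 0% of all genes, while 4 had an unadjusted p under 0.05 and edgeR called 0. Over both genotypes the differences were 4.21 ± 1.02, 1.56 ± 0.35, 0.83 ± 0.25 and -1.40 ± 0.26 (adjusted p = 0.252, 0.186, 0.338 and 0.0703), again with 0 members called by limma against 0% of genes, 4 at an unadjusted p under 0.05 and 0 called by edgeR. Without KO Control CT03 replicate 2, Dbp (4.99), Tef (1.81) and Nfil3 (-1.48) passed (adjusted p = 0.0325, 0.0325 and 0.0356).

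The 2 diets were then compared within a time. In WT livers at CT03, Dbp had 37.8, 50.2 and 38.5 normalized counts on LeuD, against 676, 110 and 555 on Control. Dbp fell 8.11-fold (-3.02 ± 0.59, adjusted p = 0.041), and the highest LeuD mouse was below the lowest Control mouse. Tef, with 772 to 926 counts on LeuD and 1334 to 2106 on Control, fell 2.12-fold (-1.08 ± 0.17, adjusted p = 0.0223). Nfil3, with 2290 to 2803 on LeuD and 1189 to 1475 on Control, rose 1.89-fold (0.92 ± 0.11, adjusted p = 0.00959). Hlf, with 1246 to 1513 on LeuD and 1190 to 1903 on Control, overlapped (-0.21 ± 0.18, adjusted p = 0.579). In all, 3 of the 4 members were called, against 2.24% of all genes.

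The calls for Dbp and Tef at CT03 were lost without Control replicate 3 or LeuD replicate 2 or 3, and that of Dbp also without LeuD replicate 1 (adjusted p = 0.0858 to 0.140). Nfil3 stayed past the threshold without each of the 6 libraries in turn (0.83 to 0.99, adjusted p = 0.00896 to 0.0468). In 1 fit of 24 libraries none of the 3 passed (adjusted p = 0.177 for Nfil3, 0.229 for Tef and 0.25 for Dbp).

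At CT15 the diet differences of Dbp, Tef and Nfil3 in WT livers had the opposite signs, and none was called. Dbp had 1743, 969 and 2061 normalized counts on LeuD and 703, 356 and 937 on Control, which did not overlap (1.30 ± 0.38, adjusted p = 0.227). Nfil3 had 851, 1008 and 828 on LeuD and 1231, 1207 and 1562 on Control, which did not overlap either (-0.57 ± 0.14, adjusted p = 0.161). The authors' deposited table gave Nfil3 an adjusted p of 0.0172. Tef (0.40 ± 0.15) and Hlf (0.31 ± 0.13) overlapped between diets. By limma 0 members were called, against 0.186% of all genes, although 4 had an unadjusted p under 0.05, and edgeR called 0.

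In KO livers no diet change of a member was called. At CT03 the changes were -2.55 ± 1.32 for Dbp, -1.50 ± 0.52 for Tef, -0.78 ± 0.33 for Hlf and 0.71 ± 0.26 for Nfil3 (adjusted p = 0.407, 0.308, 0.344 and 0.315). By limma 0 members were called, against 0% of all genes, 2 had an unadjusted p under 0.05, and edgeR called 0. The authors' deposited table gave Tef an adjusted p of 0.032. At CT15 the changes were 1.55 ± 0.74 for Dbp, 0.12 ± 0.18 for Tef, 0.36 ± 0.17 for Hlf and -0.60 ± 0.33 for Nfil3. Here 0 members were called by limma, against 0.0202% of genes, 0 had an unadjusted p under 0.05, and edgeR called 0.

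Averaged over both genotypes, the diet effect at CT03 was called for 3 members, against 4.17% of genes. Dbp fell by 2.78 ± 0.72 on the log2 scale (adjusted p = 0.0346), Tef fell by 1.29 ± 0.25 (0.00528), and Nfil3 rose by 0.81 ± 0.19 (0.0174), while Hlf was at -0.49 ± 0.18 (0.117). Without the 3 acinar libraries Dbp (-2.58, adjusted p = 0.124) and Nfil3 (0.82, 0.0529) no longer passed, and Dbp was also lost without any 1 of 9 libraries of the CT03 groups (adjusted p = 0.0565 to 0.0944). At CT15 the averages were 1.43 ± 0.72 for Dbp, 0.27 ± 0.25 for Tef, 0.34 ± 0.18 for Hlf and -0.58 ± 0.19 for Nfil3. By limma 0 were called at CT15, against 5.42% of genes, 1 had an unadjusted p under 0.05 (Nfil3, adjusted p = 0.0702), and edgeR called 0. Averaged over time as well, the diet effect called 0 members by limma, against 13.9% of genes, 1 had an unadjusted p under 0.05, and edgeR called 1. That was Tef, at -0.51 ± 0.17 (adjusted p = 0.0563 by limma and 0.0393 by edgeR).

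The genotype comparison asks whether loss of GCN2 shifts these genes. On LeuD at CT15, Dbp had 915, 817 and 368 normalized counts in KO livers and 1743, 969 and 2061 in WT livers. Each KO mouse was below each WT mouse for Dbp, and the share of all genes apart in this pair was not taken. The Dbp change was not called (-1.22 ± 0.38, adjusted p = 0.135). Tef was at -0.44 ± 0.15 (adjusted p = 0.171), Hlf at 0.02 ± 0.14 and Nfil3 at 0.36 ± 0.23. By limma 0 members were called, against 1.89% of genes, with 2 at an unadjusted p under 0.05, and edgeR called 0. Cell markers also separated these groups: hepatocyte markers were higher in all 3 KO livers than in any WT liver, the 8 endothelial and stellate markers stood at 227 to 305 RPM in KO and 348 to 387 RPM in WT livers, and the lymphocyte markers at 1.37 to 3.17 RPM in KO and 4.20 to 9.38 RPM in WT livers. Their part in the values was not tested.

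On LeuD at CT03, Nfil3 had 1721, 1479.8 and 2053 normalized counts in KO livers and 2803, 2451 and 2290 in WT livers. Each KO mouse was below each WT mouse for Nfil3, and the share of all genes apart in this pair was not taken. The Nfil3 change was not called (-0.53 ± 0.15, adjusted p = 0.252), and without KO replicate 3 it passed (-0.65, adjusted p = 0.0214). Dbp ran from 47.7 to 128 in KO livers and from 37.8 to 50.2 in WT livers (0.99 ± 0.37, adjusted p = 0.331). Tef was at -0.05 ± 0.31 and Hlf at -0.54 ± 0.31. Here 0 members were called by limma, against 0.0416% of genes, 2 had an unadjusted p under 0.05, and edgeR called 0. Cell markers separated these groups too. Hepatocyte markers stood at 144901 to 152742 RPM in KO and 98860 to 108492 RPM in WT livers. The endothelial and stellate markers stood at 282 to 362 RPM in KO and 375 to 415 RPM in WT livers, while the lymphocyte markers overlapped. Acinar markers stood at 13767 RPM in KO replicate 1. The part of these markers in the values was not tested.

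On Control no genotype change of a member was called. At CT15 the changes were -1.49 ± 0.76 for Dbp, -0.17 ± 0.18 for Tef, -0.04 ± 0.16 for Hlf and 0.39 ± 0.26 for Nfil3. At CT03 they were 0.51 ± 1.38, 0.36 ± 0.44, 0.02 ± 0.21 and -0.33 ± 0.24 in the same order of genes. By limma 0 members were called at either time, against 0.0798% of genes at CT15 and 0.0136% at CT03, with 0 at an unadjusted p under 0.05, and edgeR called 0. Hepatocyte markers separated the genotypes on Control as well. They stood at 121262 to 135054 RPM in KO and 85482 to 118861 RPM in WT livers at CT15. At CT03 they stood at 111363 to 123988 RPM in KO and 99394 to 105805 RPM in WT livers. The endothelial and stellate markers overlapped at both times. The part of these markers in the values was not tested. The average genotype effect over diets and times was -0.30 ± 0.51 for Dbp, -0.07 ± 0.17 for Tef, -0.13 ± 0.12 for Hlf and -0.02 ± 0.13 for Nfil3. By limma 0 were called, against 2.48% of genes, with 0 at an unadjusted p under 0.05, and edgeR called 0.

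Differences of an effect between genotypes were also tested. On LeuD the time effect of Dbp was 2.93 ± 0.44 in KO livers and 5.15 ± 0.27 in WT livers, a difference of -2.21 ± 0.58 that missed the threshold (adjusted p = 0.372). That of Nfil3 was -0.60 ± 0.26 in KO livers and -1.49 ± 0.12 in WT livers, a difference of 0.89 ± 0.30 (adjusted p = 0.436). By limma 0 members were called, against 0.0207% of genes, 2 had an unadjusted p under 0.05, and edgeR called 0. The time effect by genotype on Control, and the diet effect by genotype at CT15 and at CT03, called 0 members by limma, against 0.0275%, 0.0206% and 0% of genes. In these 3 tests 0 members had an unadjusted p under 0.05, and edgeR called 0. The test of all 3 factors called 0 members by limma, against 0.00693% of genes, where 0 had an unadjusted p under 0.05 and edgeR made 0 calls. The differences of Dbp in these tests had wide errors, such as -2.01 ± 1.81 for time by genotype on Control.

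Ordered by mean level, Dbp was highest in WT LeuD at CT15 (1591 ± 561 normalized counts, SD, n = 3) and lowest in WT LeuD at CT03 (42.2 ± 6.97). Tef had the same ends, with 6469.7 ± 855 in WT LeuD at CT15 and 829 ± 84.6 in WT LeuD at CT03. Nfil3 was ordered the other way, with 2515 ± 262 in WT LeuD at CT03 and 896 ± 97.8 in WT LeuD at CT15. Hlf was highest in KO LeuD at CT15 (2669.9 ± 261) and lowest in KO LeuD at CT03 (1030.0 ± 436). For every member each group overlapped the next in this order.

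Levels of different genes were set against each other per kilobase of annotated exon (GENCODE M21 on GRCm38), which gives 2993 exon bases for Dbp, 7867 for Tef, 6681 for Hlf and 2026 for Nfil3. In WT LeuD at CT15, Tef had the highest level, 822 ± 109 normalized counts per kilobase, followed by Dbp with 532 ± 188, Nfil3 with 442 ± 48.3 and Hlf with 396 ± 55.4 (SD, n = 3). In WT LeuD at CT03, Nfil3 led with 1241 ± 130, followed by Hlf with 209 ± 20.6, Tef with 105 ± 10.8 and Dbp with 14.1 ± 2.33. Nfil3 was above each activator in all 3 of these CT03 mice. The log2 ratio of Dbp to Nfil3 counts was -0.82 ± 1.12 at CT15 and -4.37 ± 0.69 at CT03 in KO LeuD livers, and -2.99 ± 2.06 at CT15 and -1.10 ± 3.45 at CT03 in KO Control livers. It was 0.76 ± 0.72 at CT15 and -5.91 ± 0.30 at CT03 in WT LeuD livers, and -1.10 ± 0.57 at CT15 and -1.94 ± 1.46 at CT03 in WT Control livers.

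Of the exon bases of Dbp, 18.0% overlap those of Sphk2 on the other strand. The library kit as described in the labels does not mark strand, so reads there cannot be told apart by strand. The error this brings to Dbp counts was not measured, and the share of bases is no bound on it. It may weigh most where Dbp was low, such as WT LeuD at CT03 (42.2 ± 6.97 normalized counts). Sphk2 had 1813 ± 38.9 normalized counts at CT15 and 2290 ± 66.9 at CT03 in WT LeuD livers (SD, n = 3), a change of -0.34 ± 0.08 (adjusted p = 0.0378), opposite in sign to that of Dbp. For Tef, 2.45% of exon bases overlap an antisense gene, and for Hlf and Nfil3 none do.

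Correlations among the members were taken over the 12 libraries of each time on log2(normalized count + 1), for 6 pairs of genes at 2 times, with permutation p-values adjusted over the 12. Each set of 12 pools 4 groups of diet and genotype, so differences between group means enter r and its p. Dbp and Tef correlated with r = 0.86 at CT15 (adjusted permutation p = 0.00096) and r = 0.93 at CT03 (0.00144), with Spearman rho of 0.91 (0.0012) and 0.85 (0.00472). Without the 2 libraries farthest from the Dbp median, r was 0.89 at CT15 and 0.84 at CT03. Within the diets r was 0.86 on LeuD and 0.86 on Control at CT15 (6 libraries each), and 0.41 on LeuD and 0.98 on Control at CT03. The CT03 relation was thus weak within LeuD, where Dbp spanned only 37.8 to 128 counts. On deviations from the 8 group means over the 24 libraries, a description added after the data were seen, r was 0.85 for Dbp with Tef, -0.57 for Dbp with Nfil3, -0.23 for Tef with Nfil3 and 0.35 for Tef with Hlf.

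For Dbp and Nfil3, r was -0.82 at CT15 (adjusted permutation p = 0.0087) and -0.82 at CT03 (0.00568), with Spearman rho of -0.63 (0.0781, which missed the threshold) and -0.84 (0.00472). Without the 2 farthest libraries r was -0.64 at CT15 and -0.60 at CT03. Within diets it was -0.78 on LeuD and -0.71 on Control at CT15, and -0.56 on LeuD and -0.72 on Control at CT03. Tef and Nfil3 correlated at CT03 (r = -0.74, adjusted permutation p = 0.0194, rho = -0.71, 0.036), with r = -0.60 without the 2 farthest libraries. Within LeuD at CT03 that relation turned, with r = 0.47 on LeuD and -0.80 on Control, so it did not hold within each diet. Tef and Hlf at CT03 had r = 0.61 (adjusted permutation p = 0.0258) but rho of 0.57 (0.119). The other 6 relations had adjusted permutation p-values for r of 0.122 to 0.553.

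**Figure D3:**
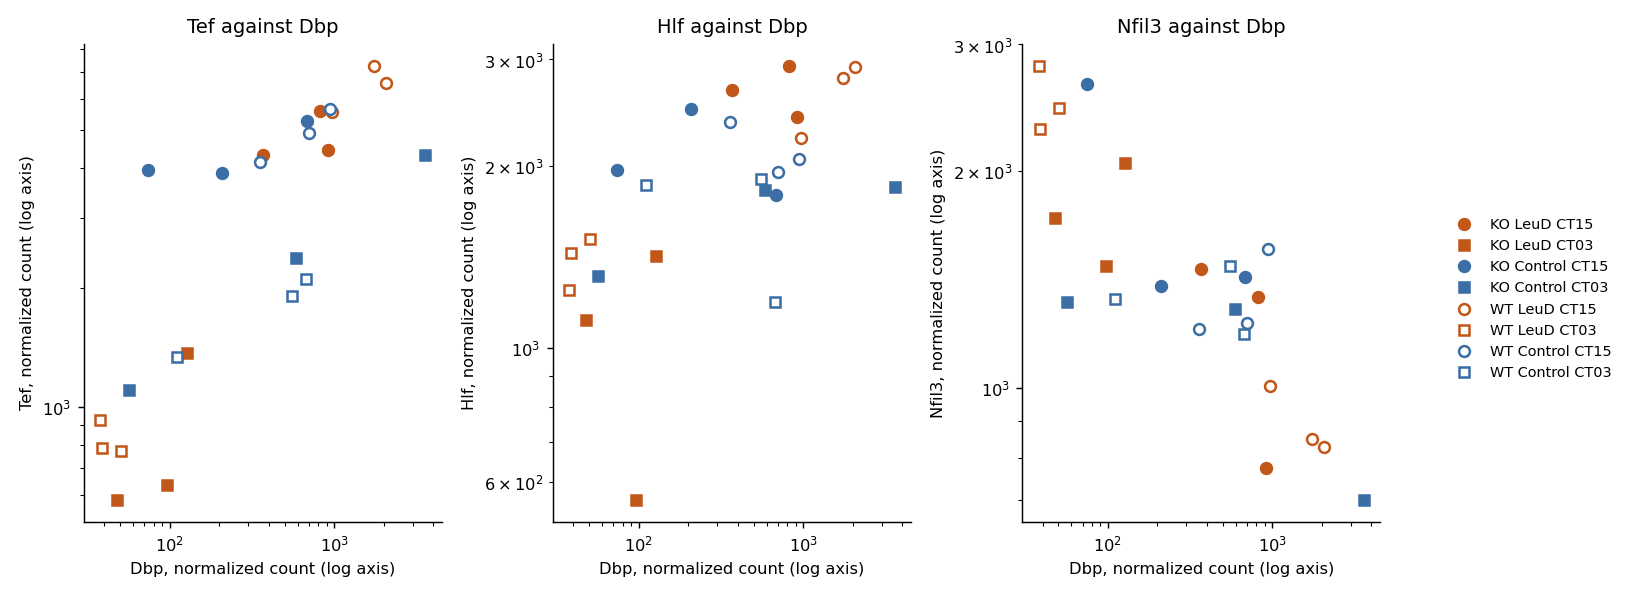
Tef, Hlf and Nfil3 against Dbp in the 24 libraries, in normalized counts on log axes, with 1 point a mouse (circles CT15, squares CT03, filled KO, open WT, orange LeuD, blue Control). Nfil3 is lowest, at 699, in the KO Control CT03 mouse with the highest Dbp, at 3591.

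Among 11341 genes with a mean of at least 50 normalized counts, those with a pattern most like each member over the 24 libraries were named by Pearson r, as a description. Since the 24 libraries share the contrast of time, r within each time is given too. Dbp was most like Upp2 (r = 0.84), Tef (0.83), Per3 (0.82) and Etnk2 (0.80), and among the most opposite was Arntl (-0.90). Arntl kept r = -0.93 with Dbp at CT15 and -0.87 at CT03. In the same order r with Dbp was 0.78 and 0.82 for Upp2, 0.86 and 0.93 for Tef, 0.89 and 0.94 for Per3 and 0.79 and 0.70 for Etnk2. Tef was most like the clock genes Per3 (0.96) and Ciart (0.94), then Usp2 (0.94), a ubiquitin protease gene, and Gys2 (0.92), the liver glycogen synthase gene, and it was most opposite to Shc1 (-0.94) and Loxl4 (-0.91). At CT15 and CT03, r with Tef was 0.66 and 0.93 for Per3, 0.71 and 0.86 for Ciart and 0.88 and 0.83 for Usp2. For Gys2 it was 0.75 and 0.76, for Shc1 -0.32 and -0.92, and for Loxl4 -0.68 and -0.78.

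Hlf was most like Homer2 (r = 0.93), Ptdss1 (0.89), Syde2 (0.88) and Zc3h8 (0.86), and most opposite to Afap1l2 (-0.86) and Kcnj8 (-0.86). None of these is another member. For Ptdss1 r was 0.24 at CT15 and 0.90 at CT03, and for Syde2 0.19 and 0.88. Homer2 had 0.53 and 0.91, Zc3h8 0.67 and 0.80, Afap1l2 -0.28 and -0.88, and Kcnj8 -0.59 and -0.76. Among the genes most like Nfil3 were Arntl (0.85), Arl4a (0.81) and Mir17hg (0.78), and it was most opposite to Dbp (-0.83) and Bhlhe41 (-0.79), a clock repressor gene. Arntl kept r = 0.80 at CT15 and 0.90 at CT03 with Nfil3. In the same order Arl4a had 0.75 and 0.83, Mir17hg 0.64 and 0.87, Dbp -0.82 and -0.82, and Bhlhe41 -0.66 and -0.86. Arntl was thus among the most opposite to Dbp and among the most like Nfil3.

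Known liver outputs of the PAR bZIP factors were followed as a list of 9 genes. In WT LeuD livers, where 9.61% of all genes were called, 8 of the 9 rose and 0 fell. The median log2 change was 2.60, against 0.01 over all genes. Por, the electron donor of the P450 enzymes, had 41263 ± 4525 normalized counts at CT15 and 6793 ± 430 at CT03 (2.60 ± 0.12, adjusted p = 1.8e-05). Cyp2a5, a coumarin hydroxylase, changed by 2.68 ± 0.18 (adjusted p = 0.00018) and Alas1, which starts haem synthesis, by 3.13 ± 0.29 (0.000776). Cyp2c50, at -0.06 ± 0.14, was the 1 of the 9 that was not called, named after its value was seen. In KO LeuD livers, where 0.805% of all genes were called, 2 of the 9 were called higher and 0 lower, with a median of 1.10 against 0.00. These were Por (2.29 ± 0.33, adjusted p = 0.0259) and Ppara, the fatty acid receptor gene (0.82 ± 0.14, 0.0471), while Alas1 stood at 1.16 ± 0.44 (0.259).

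The test of time by diet called 0 of the 9 in WT livers and 0 of the 9 in KO livers, against 0.00686% and 0% of all genes. In WT Control livers, where 1.42% of all genes were called, 1 of the 9 was called higher and 0 lower, with a median of 1.87 against 0.00. This was Alas1 (2.05 ± 0.36, adjusted p = 0.0432), and Por (1.87 ± 0.38, 0.0676) and Cyp2a5 (2.36 ± 0.56, 0.0922) missed it. In KO Control livers 0 of the 9 were called, against 0.0407% of all genes, with a median of 0.90 against 0.00. In the 4 single comparisons of diet 0 of the 9 were called, against 0% to 2.24% of all genes. Averaged over genotypes and times, 13.9% of all genes were called. Of the 9, 1 was called lower on LeuD and 0 higher, a count near that share and so no result about the list. The median was 0.24 against 0.00 over all genes. The 1 called was Cyp2b10, a P450 gene, which fell by 2.08 ± 0.50 (adjusted p = 0.00811). Its changes were -3.21 ± 0.78 in KO and -1.40 ± 0.75 in WT livers at CT15, and -3.29 ± 1.19 in KO and -0.43 ± 0.45 in WT livers at CT03. In the averages over both genotypes, 5 of the 9 were called higher at CT15 on LeuD and 4 on Control, against 14.9% and 8.66% of all genes.

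**Figure D4:**
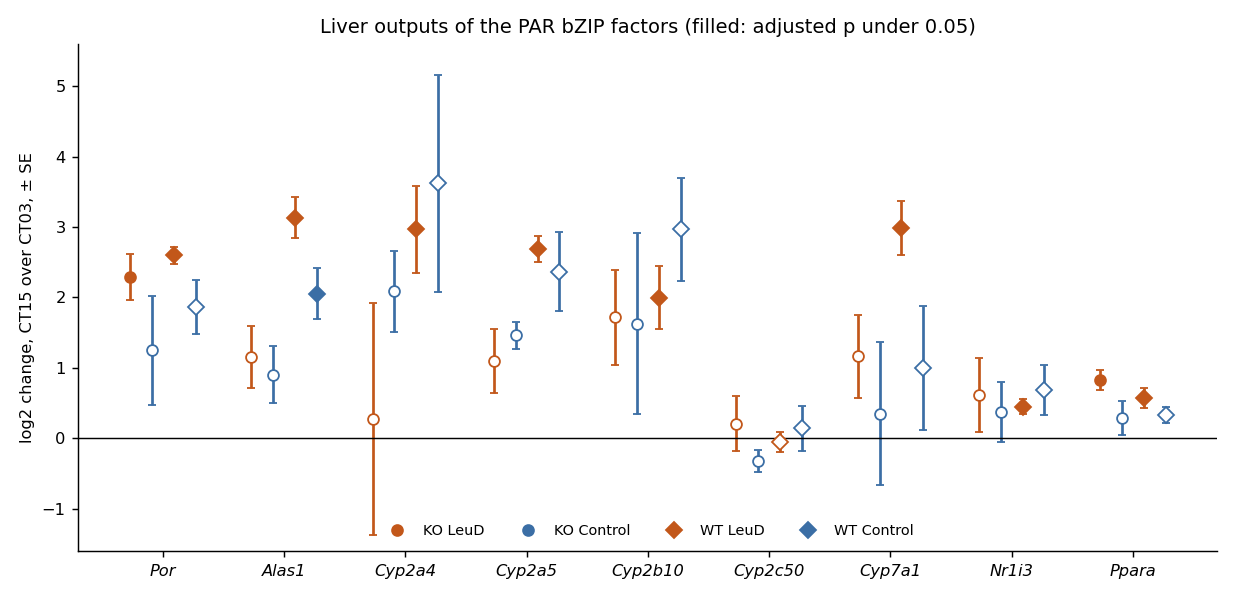
Log2 change ± SE with time (CT15 over CT03) of the 9 liver outputs of the PAR bZIP factors in KO and WT livers on LeuD and Control, from groups of 3 mice; filled symbols passed an adjusted p of 0.05. In WT LeuD, 8 of the 9 passed, and Cyp2c50 at -0.06 did not.

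The clock genes upstream were followed in 15 measured genes of a list of 16 names. Between times, 9 were called higher at CT15 and 4 lower in WT LeuD livers, 5 higher and 1 lower in KO LeuD, 7 higher and 1 lower in WT Control and 0 in KO Control, with medians of 1.27, 1.30, 0.82 and 0.38. Of all genes 9.61%, 0.805%, 1.42% and 0.0407% were called in these comparisons, in the same order. Per2 rose by 3.42 ± 0.12 in WT LeuD (adjusted p = 9.78e-06) and by 3.19 ± 0.22 in KO LeuD (0.00164). Of 7 clock genes known to carry D-boxes, 4 were called higher and 1 lower in WT LeuD, 2 higher and 0 lower in KO LeuD, 4 higher and 1 lower in WT Control and 0 in KO Control. Of the 4 RORE factors, which bind the element that controls Nfil3, Nr1d2, a repressor, rose by 1.27 ± 0.18 in WT LeuD (adjusted p = 0.00458), while Nr1d1, the other repressor, fell by 1.21 ± 0.27 (0.027). In WT Control Nr1d1 fell by 2.53 ± 0.25 (adjusted p = 0.00718), and Nr1d2 stood at -0.10 ± 0.32.

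At CT03 in WT livers the diet moved the clock genes both ways. Of the 15, 3 were called higher on LeuD and 3 lower, and the leading ones were Npas2 (2.43 ± 0.24, adjusted p = 0.0049) and Arntl (1.10 ± 0.11, 0.00518), both activators, which rose, and Bhlhe40, a repressor (-0.98 ± 0.13, 0.0112), which fell. Arntl had 1633 ± 156 normalized counts on LeuD and 759.5 ± 76.8 on Control. Of the 4 RORE factors 0 were called, with Nr1d2 at -0.53 ± 0.17 and Nr1d1 at -0.53 ± 0.18 (adjusted p = 0.156 and 0.167). At CT15 in WT livers 1 clock gene of the 15 was called, Per1, which rose by 1.25 ± 0.10 (adjusted p = 0.0146). In KO livers 0 of the 15 were called at either time, against 0.0202% of all genes at CT15 and 0% at CT03. In WT livers these shares were 0.186% at CT15 and 2.24% at CT03.

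Of 12 other bZIP genes of liver, from the C/EBP, ATF and related families, 1 rose and 1 fell with time in WT LeuD livers, Cebpd (0.62 ± 0.16, adjusted p = 0.0471) and Atf5 (-1.40 ± 0.20, 0.00519), and 0 were called in the other 3 time comparisons. Of all genes, 9.61% were called with time in WT LeuD, 0.805% in KO LeuD, 1.42% in WT Control and 0.0407% in KO Control. With diet in WT livers at CT03, Atf5, a factor of the amino acid response, rose by 1.44 ± 0.18 (adjusted p = 0.00959) and Cebpg by 0.62 ± 0.12 (0.038), and 0 were called in the other 3 single comparisons of diet. The shares of all genes called with diet were 2.24% in WT at CT03, 0.186% in WT at CT15, 0.0202% in KO at CT15 and 0% in KO at CT03. Averaged over genotypes and times, where 13.9% of all genes were called, 4 of the 12 were called higher on LeuD and 0 lower. Their median was 0.19 against 0.00 over all genes. The 4 called were higher on LeuD. They were Ddit3 (1.18 ± 0.17, adjusted p = 0.000134), Atf5 (1.16 ± 0.19, 0.000494), Cebpg (0.37 ± 0.09, 0.0111) and Atf3 (1.08 ± 0.31, 0.0257). Over both genotypes, Ddit3 and Atf5 were the 2 called at CT15 (1.15 ± 0.24 and 1.07 ± 0.27, adjusted p = 0.00874 and 0.0238) and the 2 called at CT03 (1.21 ± 0.24 and 1.25 ± 0.27, 0.00617 and 0.0120). Over both genotypes, 5.42% of all genes were called with diet at CT15 and 4.17% at CT03.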

How the data were processed

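RNA-seq was made from oligo(dT)-selected liver RNA of 24 mice, per the labels' protocols. Per the submitters' processing notes, Trimmomatic 0.36, STAR 2.5.2b, featureCounts of Subread 1.5.2, DESeq2, DESeq and the build GRCm39 were used. Each of the 10 deposited tables compares 2 groups of 3 mice and holds the authors' normalized signal per gene and library, a log2 fold change and a p-value with its adjusted value, per the file headers. The deposited signal is read counts divided by a size factor set within each table: 100% of the values used came out as whole reads within 0.01, and 34 repeat columns of a library differed by 0 reads.

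Each pair was fitted with limma 3.58.1 (R 4.3.3, mean-variance trend) on log2(value + 1). The p-values were adjusted by Benjamini and Hochberg's method across every gene tested, and the threshold was 0.05. Interactions used 12 libraries and genes with a mean of at least 10. The LeuD genotype pairs have no table here, so they, the averages and the test of all 3 factors used 14420 genes on 1 scale over 24 libraries, from the recovered reads. edgeR 4.0.16 tested the recovered reads as an alternative. Correlations used scipy 1.17.1. The labels call the 3 samples of a group biological replicates. Their numbers were not treated as pairs. In no comparison did every same-numbered pair correlate above 0.1, with r from -0.50 to 0.51. With 3 mice per group this check cannot show that the samples are unpaired.

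The members and lists were chosen with earlier results of these data known. Named genes are the 4 members in every comparison, up to 3 genes with the lowest p of each list, and for each member the 4 genes most alike and the 2 most opposite by r. Some genes that this rule names are not reported here. The limma fits of some of the comparisons were also run on simulated data, and the outcome is not reported here.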

Additional observations from a re-analysis of the deposited data

Results flagged for a closer look

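In WT livers the time effect of Nfil3 (CT15 over CT03) was -1.49 on LeuD and -0.00 on Control, on the log2 scale. The test of that difference gave -1.49 ± 0.18 (limma, adjusted p = 0.0382), with Nfil3 lower at CT15 in 3 of 3 LeuD mice than in any CT03 mouse. Over the libraries left out in turn the adjusted p ran from 0.0251 to 0.193. In 1 limma fit of all 24 libraries it was 0.999988. The same difference in KO livers was -1.31 ± 0.46 (adjusted p = 0.755).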

How the results depend on the processing

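The 4 calls of time in WT LeuD held under every alternative run. A pseudocount of 5, a mean of at least 50 and TMM factors changed no count of called members by over 1.5 times and turned no direction. In 1 fit of 24 libraries the members called were 0 for diet in WT at CT03 (3 otherwise), 1 for diet in KO at CT03 (Tef, adjusted p = 0.0211; 0 otherwise) and 0 for time by diet in WT (1 otherwise). By edgeR and with the replicate block, 1 member (Tef) was called for the average diet effect, against 0. The authors' adjusted p called 1 member each for diet in WT at CT15 and diet in KO at CT03, against 0. Without acinar libraries 1 member was called for time in KO LeuD (2 otherwise), 0 for time by diet in WT and 1 for diet at CT03 over both genotypes (3 otherwise).

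The main fits did not treat the replicate numbers as pairs. A fit with the replicate block called 1 member for time in KO LeuD (Dbp missed it, adjusted p = 0.0906) and 1 for diet in WT at CT15 (Dbp, 0.0193). In time by diet in WT it called Tef (0.0331) in place of Nfil3 (0.0983).

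Leaving out 1 library at a time, the members called ran from 0 to 1 for time in WT Control, 0 to 3 for time in KO LeuD, 1 to 3 for diet in WT at CT03, 0 to 1 for genotype on LeuD at CT03, 0 to 3 for time by diet in WT, 0 to 1 for the average diet effect, 0 to 1 for diet at CT15 over both genotypes and 0 to 3 for time by diet over both genotypes.

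Of the 77 changes that turned sign, 0 were called in either fit. The authors' table gave 0.00205 for Nfil3 with time in WT Control. edgeR gave -0.000677 for Hlf with genotype on Control at CT03, 0.051 for Tef with genotype on LeuD at CT03, -0.000393 for Hlf with genotype on LeuD at CT15, -0.57 and -0.15 for Dbp in diet by genotype at CT03 and CT15, 0.13 for Dbp and 0.013 for Nfil3 in the average genotype effect, and 0.42 for Dbp in the test of 3 factors. Without acinar libraries Tef was at 0.17 for genotype on LeuD at CT03 and 0.022 in the average genotype effect, and Nfil3 at -0.036 in the test of 3 factors.

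Leaving out 1 library, the changes that turned sign ran from -0.12 to 0.072 for Nfil3 with time in WT Control, -2.73 to 0.25 for Dbp with time in KO Control, and -0.92 to 2.06 (Dbp), -0.12 to 0.87 (Tef) and -0.20 to 0.18 (Hlf) for genotype on Control at CT03. They ran from -0.17 to 0.063 for Hlf with genotype on Control at CT15, -0.44 to 0.17 for Tef with genotype on LeuD at CT03 and -0.10 to 0.094 for Hlf with genotype on LeuD at CT15. In time by genotype they ran from -0.23 to 0.15 for Hlf on Control and -0.62 to 0.00226 for Tef on LeuD. In diet by genotype they ran from -1.08 to 1.90 (Dbp) and -0.93 to 0.057 (Tef) at CT03, and -0.52 to 1.07 (Dbp), -0.070 to 0.19 (Hlf) and -0.21 to 0.27 (Nfil3) at CT15. Averages ran from -0.15 to 0.019 for Hlf with diet, and -0.66 to 0.088 (Dbp), -0.19 to 0.054 (Tef) and -0.10 to 0.050 (Nfil3) with genotype. The test of 3 factors ran from -1.64 to 1.35 (Dbp) and -0.33 to 0.66 (Tef), and time on Control over both genotypes from -0.94 to 0.55 (Dbp). The causes were not tested.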
